A study of Bos taurus with 8 samples.

Results

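The 10 genes described here were chosen by name for their place in adipogenesis: the adipogenic transcription factors *PPARG*, *CEBPA*, *CEBPB*, *CEBPD*, *EBF1*, *EBF2* and *ZNF423*, and the preadipocyte regulators or markers *DLK1*, *NOCT* and *ATXN1*. All 10 were among the 18871 named gene rows of the count table, and all 10 passed the filter of at least 20 counts over all clones, as did 18339 genes in all. RNA-seq had been performed on 8 single-cell preadipocyte clones of *Bos taurus*, 4 from the stromal vascular fraction (SVF) of intramuscular fat (IMF1 to IMF4, longissimus dorsi muscle) and 4 from the SVF of subcutaneous fat (SF1 to SF4). The donors were adult male Angus-cross steers, 5 by the sample labels, a number on which the sources differ, and which clones share a steer is not stated. Each clone grew from 1 cell of its own SVF sample and was selected in culture, in part for how well it grew and formed fat, so the clones do not represent all SVF cells. The methods place RNA extraction at 80% confluence, whereas the deposited design text places adipogenic induction before sequencing, so the state of the clones at harvest is uncertain. No clone was otherwise treated.

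Adipocyte differentiation runs as a cascade. C/EBPβ and C/EBPδ, encoded by *CEBPB* and *CEBPD*, are induced early and activate *PPARG* and *CEBPA*, whose products sustain each other and switch on the genes of the mature fat cell. The zinc finger protein ZNF423 and the early B-cell factors act around commitment of the precursor, and DLK1, also called Pref-1, holds preadipocytes undifferentiated.

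Between 19654917 and 29308882 reads were counted on named genes in an IMF clone and between 19979899 and 24868233 in an SF clone. Levels are given as CPM, the count scaled by the TMM-normalized library size, and 3 counts corresponded to between 0.0981 and 0.165 CPM. The preadipocyte label was checked against marker lists. The mesenchymal list was high in all 8 clones, with a summed level from 21710 to 22670 CPM in IMF and from 35770 to 40090 CPM in SF. Most of this sum was collagen, with *COL1A1* at 12370 ± 392 CPM in the IMF group and 30090 ± 1070 in the SF group and *COL3A1* at 8512 ± 191 and 7388 ± 947 (SD, n = 4 each). Of the 7 markers, *COL1A1* and *THY1* were called, both lower in IMF, with log2 fold changes of -1.28 and -1.30 (beside 8.82% of all genes tested; limma-voom called *COL1A1* only). *PDGFRA*, the receptor that marks adipocyte progenitors, averaged 184 ± 2.84 CPM over the IMF clones and 131 ± 23.2 over the SF clones (SD, n = 4 each). Markers of other cell types moved with the depot. All 8 of 8 myogenic markers were called higher in IMF (beside 4.78% of all genes tested), with a summed level of 740.6 to 846.3 CPM against 0.651 to 31.0 CPM. Of these, *MYOD1*, *MYOG*, *CDH15* and *CHRNA1* did not exceed 3 counts in any SF clone. Of 7 endothelial markers, 6 were higher in IMF, with a sum of 149 to 196 CPM against 27.3 to 38.1 CPM, and *KDR* and *CD93* did not exceed 3 counts in any SF clone. The 5 leukocyte markers in the table summed to 17.3 to 39.7 CPM in IMF and 45.7 to 78.3 CPM in SF, and 3 mural markers to 88.7 to 98.1 CPM and 127.5 to 331 CPM. Genes of these lists moved in both directions: *CSPG4* was lower in IMF (63.8 ± 5.11 against 209 ± 87.6 CPM) and *MCAM* higher (26.5 ± 1.71 CPM, against 104, 3, 3 and 0 counts in SF1 to SF4), and *CD14* was higher in IMF (5.88 ± 0.862 against 2.10 ± 0.619 CPM, SD, n = 4 each). The mature adipocyte markers in the table (3 of 6) summed to 11.5 to 14.2 CPM in IMF and 3.50 to 5.01 CPM in SF. This difference was that of *FABP4* (9.63 ± 1.86 against 0.178 ± 0.207 CPM). *PLIN1* went the other way (2.835 ± 0.166 against 3.62 ± 0.212 CPM), and *CIDEC* was low in both (0.540 ± 0.611 and 0.436 ± 0.545 CPM, SD, n = 4 each). The 2 Schwann cell markers summed to 4.56 to 6.24 and 2.87 to 5.68 CPM, and *KRT14* alone of the keratinocyte markers to 2924 to 5769 and 1477 to 3054 CPM. The part of these markers in the differences given here was not tested.

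A gene was called different between depots when edgeR's quasi-likelihood test gave a Benjamini-Hochberg adjusted p under 0.05 over all genes tested and the absolute log2 fold change, always IMF relative to SF, was at least 1. By this rule *CEBPD* was higher and *PPARG* was lower in the IMF preadipocyte clones, 2 of the 10 genes (20%) beside 8.82% of all genes tested (4.78% higher and 4.04% lower in IMF). *EBF1* was higher and *ATXN1* lower in IMF with an adjusted p under 0.05 and a smaller fold change, which made 4 of 10 by adjusted p alone beside 25.8% of all genes tested (14.4% higher and 11.4% lower). The 4 IMF and 4 SF clones did not overlap in 5 of the 10 genes, *CEBPB*, *CEBPD* and *EBF1* with IMF above and *PPARG* and *ATXN1* with SF above, beside 32.1% of all genes (18.0% with IMF and 14.1% with SF above). The median log2 fold change over the 10 genes was 0.13 and over all genes tested -0.03. In such bulk libraries, fewer cells expressing a gene and less of its RNA per cell cannot be told apart. Since it is not stated which clones share a steer, the p-values measure only the spread between these clones.

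**Figure D1:**
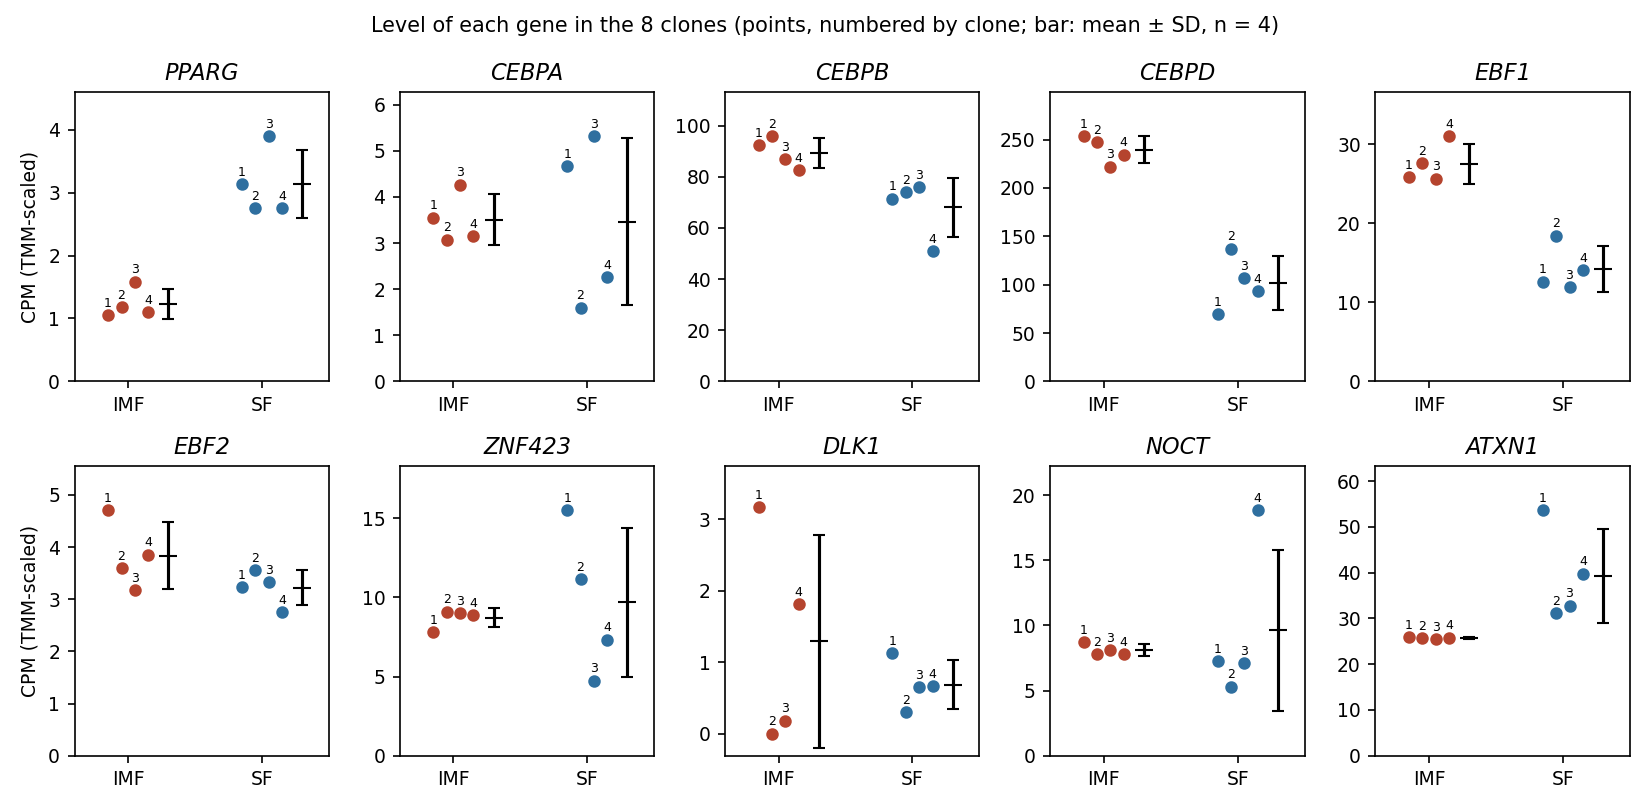
CPM of each of the 10 genes in the 8 clones, 1 panel per gene with its own linear axis; points are clones, numbered, and the bar shows the mean ± SD of 4 clones. *CEBPD* sits at 222 to 254 CPM in IMF and at 69.3 to 137 CPM in SF, *PPARG* at 1.06 to 1.59 and 2.75 to 3.90 CPM, while 1 SF clone stands apart for *NOCT* at 18.8 CPM.

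*CEBPD* (chr14:19128179-19129773, ARS-UCD2.0) showed the strongest rise in IMF of the 10 genes. Its level was 254, 247, 222 and 234 CPM in IMF1 to IMF4 and 69.3, 137, 107 and 93.6 CPM in SF1 to SF4. Every IMF clone was above every SF clone, and SF1 was the lowest of the 8. The group means were 239 ± 14.0 and 102 ± 28.4 CPM (SD, n = 4 each), a 2.35-fold higher level in IMF. The log2 fold change was 1.23 ± 0.19 (SE), with an adjusted p of 0.002091 by edgeR. Leaving out any 1 clone gave a log2 fold change between 1.09 and 1.41.

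*CEBPB* (chr13:78205757-78206803), the partner early factor, differed in the same direction by less. It was measured at 92.4, 95.9, 86.9 and 82.5 CPM in the IMF clones and at 71.5, 74.1, 75.9 and 50.9 CPM in the SF clones. The groups did not overlap, although IMF4 and SF3 lay close and SF4 was set below the other SF clones. The log2 fold change of 0.39 ± 0.13 (SE) had a 95% interval from 0.10 to 0.69 and missed the threshold, with an edgeR adjusted p of 0.05625. It passed in 5 of 19 alternative settings, among them without SF4 (adjusted p = 0.0418 by edgeR).

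*CEBPA* (chr18:43728248-43729478), the late family member that works with *PPARG*, had no detectable difference between the depots. Its IMF clones stood at 3.55, 3.07, 4.26 and 3.14 CPM, inside the range of the SF clones at 4.67, 1.60, 5.32 and 2.26 CPM. The SF clones fell into a pair above and a pair below all 4 IMF clones. The means were 3.51 ± 0.545 and 3.46 ± 1.81 CPM (SD, n = 4 each), and the 95% interval of the log2 fold change ran from -0.84 to 0.87 (adjusted p = 0.983 by edgeR). The interval leaves room for a difference of close to 2-fold in either direction.

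Compared per length, as TPM, the counts divided by the deposited gene length and scaled to a common total, the C/EBP genes differed in their balance. The TPM of *CEBPA*, *CEBPB* and *CEBPD* summed to 439, 390.5, 403.5 and 357 in IMF1 to IMF4 and to 187, 284, 248 and 159 in SF1 to SF4. Of this sum *CEBPD* took 63.6, 62.2, 61.7 and 64.4% in the IMF clones and 37.6, 54.5, 46.6 and 53.8% in the SF clones. The *CEBPD* share was thus higher in every IMF clone, by 14.9 percentage points on average (exact permutation test, two-sided, p = 0.0286, the smallest that 4 clones against 4 allow; 0.0429 adjusted over the 3 shares). The share of *CEBPB*, at 35.8 ± 1.13% against 49.7 ± 6.84% (SD, n = 4 each), is nearly the complement of the *CEBPD* share and no separate result, so the adjusted value counts 1 difference as 2 of its 3 tests. The level of *CEBPB* itself was not lower in IMF, and the *CEBPD* share rests on the same counts as the comparison above. *CEBPA* contributed 1.20 ± 0.230% in IMF and 2.20 ± 1.15% in SF, which could not be separated (exact permutation p = 0.2286, n = 4 each). In TPM, *CEBPD* was 1.76 ± 0.0896 times *CEBPB* in the IMF clones and 0.996 ± 0.276 times in the SF clones (SD, n = 4 each), where only SF2 and SF4 had more *CEBPD* than *CEBPB*.

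**Figure D2:**
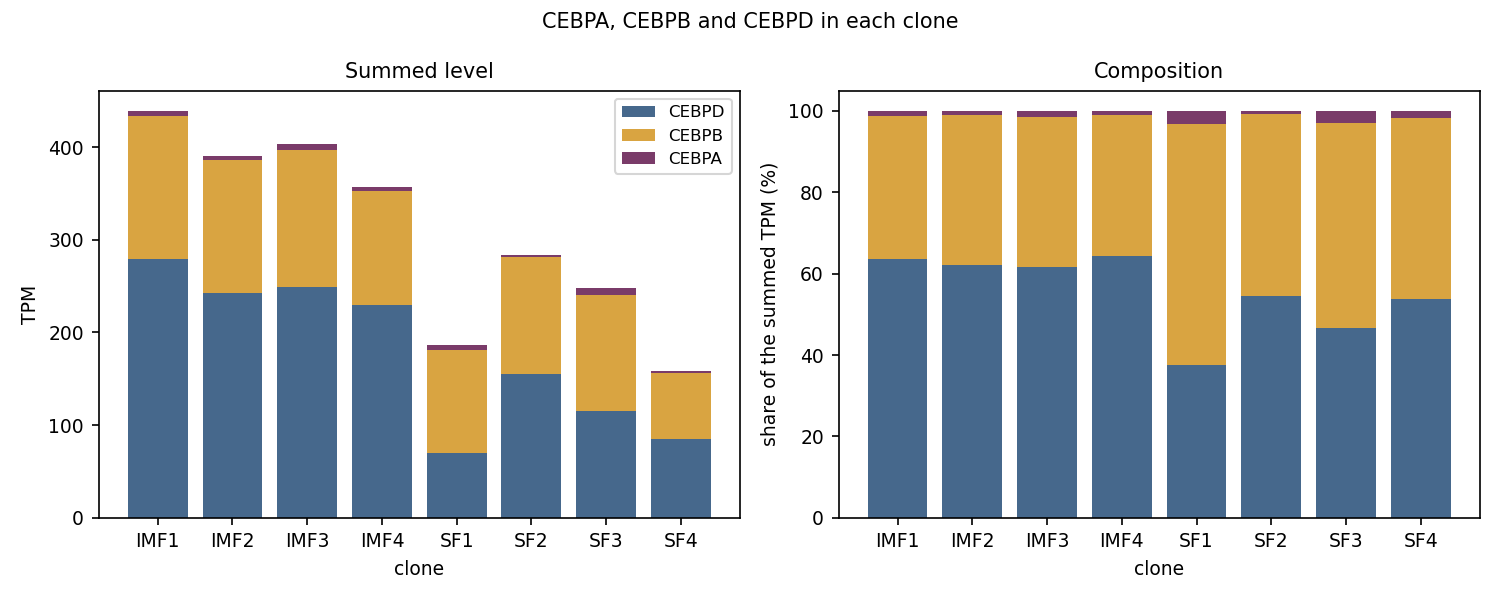
Stacked bars of *CEBPD*, *CEBPB* and *CEBPA* in each clone, as TPM on the left and as the share in percent of their sum on the right. The sums are 357 to 439 TPM in the IMF clones and 159 to 284 TPM in the SF clones. *CEBPD* holds 61.7 to 64.4% in the IMF clones and 37.6 to 54.5% in the SF clones.

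Of 7 genes listed for the wider C/EBP family, 6 were tested and *CEBPD* was the only one called (beside 8.82% of all genes tested). *CEBPZ* was listed by its symbol alone and is counted in what follows. *CEBPG*, a widely expressed dimer partner, was lower in IMF by 0.31 on the log2 scale (log2 fold change -0.31 ± 0.06 SE, adjusted p = 0.00983 by edgeR; -0.16 and 0.274 under scaling by total counts alone). By adjusted p alone, 2 of the 6 were higher in IMF, namely *CEBPD* and *CEBPZ*, and 2 were lower, *CEBPG* and *DDIT3* (beside 14.4% and 11.4% of all genes tested), the last encoding the stress-induced inhibitor CHOP. The list's median log2 fold change, with *CEBPZ* included, was 0.19.

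*PPARG* (chr22:56710574-56775806), the nuclear receptor required for fat cell formation, was low in all clones and lower in IMF. Its raw counts were 22, 36, 35 and 23 in IMF1 to IMF4 and 61, 55, 96 and 50 in SF1 to SF4. In CPM these were 1.06, 1.177, 1.59 and 1.095 against 3.13, 2.75, 3.90 and 2.755, so that the lowest SF clone stood well above the highest IMF clone. The means of 1.23 ± 0.244 and 3.13 ± 0.538 CPM (SD, n = 4 each) corresponded to a 2.55-fold higher level in SF. The log2 fold change was -1.35 ± 0.23 (SE; adjusted p = 0.00365 by edgeR), and it stayed between -1.52 and -1.26 when any 1 clone was left out. The counts in IMF limit the precision, since counting alone would give a coefficient of variation (CV) of 18.8% there and 19.9% was observed.

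*CEBPD* and *PPARG* were called in 18 of 19 alternative settings, the exception being the glmTreat test, which asks for more than a 2-fold change and in which their adjusted p-values by edgeR were 0.58 and 0.414. In TPM, *CEBPD* was 230 ± 49.1 times *PPARG* in the IMF clones and 38.2 ± 13.8 times in the SF clones (SD, n = 4 each). The 4 ratios ran from 160 to 275 in IMF and from 25.4 to 57.2 in SF.

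The RXR genes encode the obligate dimer partners of *PPARG*, and neither of the 2 tested passed the test. *RXRA* averaged 59.1 ± 2.33 CPM over the IMF clones and 58.5 ± 6.27 over the SF clones (SD, n = 4 each), with a log2 fold change of 0.01 and an adjusted p of 0.932 by edgeR, and *RXRB* had a log2 fold change of -0.05 (adjusted p = 0.748). *PPARD*, the broadly expressed sister receptor, fell in IMF by 0.68 on the log2 scale (adjusted p = 0.0128 by edgeR). Of 15 partners and co-regulators tested, 0 were called with the fold change threshold, by edgeR, while by adjusted p alone 4 were higher and 3 lower in IMF (beside 8.82% of all genes called, and 14.4% higher and 11.4% lower by adjusted p), and their median log2 fold change was 0.12. At an unadjusted p under 0.05 there were 10, and with the fold change threshold DESeq2 called 0 and limma-voom 1.

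**Figure D3:**
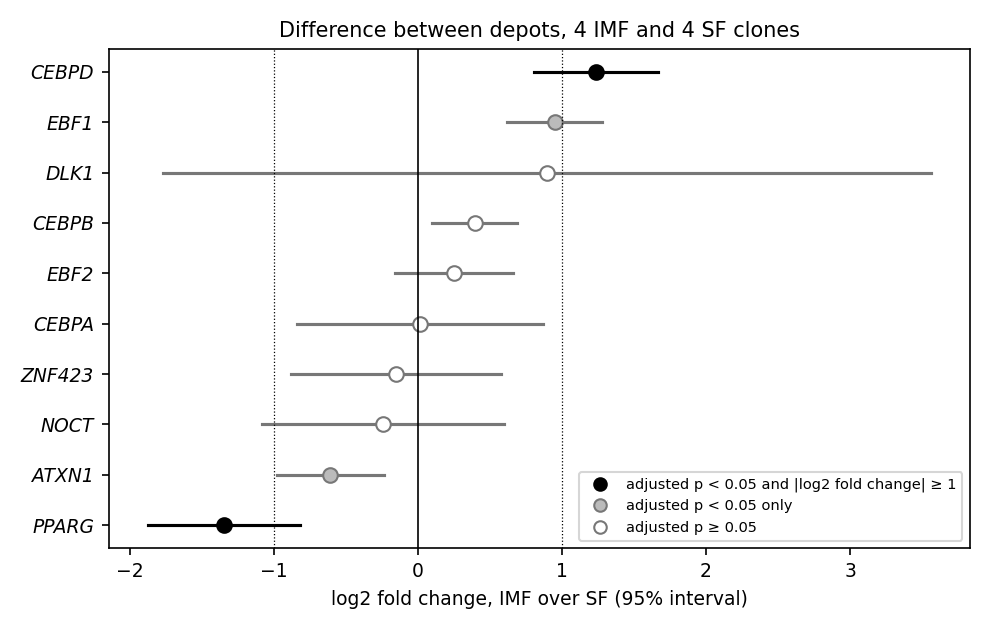
Log2 fold change (IMF over SF) of the 10 genes with 95% intervals from the edgeR fit; dotted lines mark a log2 fold change of 1 in either direction, black points are called, grey ones have an adjusted p under 0.05 only and open ones neither. The intervals of *CEBPD*, *EBF1* and *CEBPB* lie above 0 and those of *PPARG* and *ATXN1* below 0, and that of *DLK1* runs from -1.77 to 3.56.

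*EBF1* (chr7:70283493-70713852), an early B-cell factor that induces *PPARG* and *CEBPA* in preadipocytes, was higher in IMF. Its level was 25.8, 27.6, 25.7 and 31.0 CPM in the IMF clones and 12.6, 18.4, 11.9 and 14.1 CPM in the SF clones. The groups were clear of each other, with SF2 nearest to IMF. The means were 27.5 ± 2.50 and 14.3 ± 2.92 CPM (SD, n = 4 each), a 1.93-fold higher level in IMF, with a log2 fold change of 0.95 ± 0.14 (SE; adjusted p = 0.002025 by edgeR). The fold change fell just under the threshold and passed it without SF2 (1.10) and under scaling by total counts alone (1.09). Its span, introns included, overlaps that of the non-coding gene *LOC112447469* in the same table. Whether counted exons overlap was not examined.

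*EBF2* (chr8:73140595-73360337), known for the brown and beige adipocyte lineages, was measured at 4.70, 3.60, 3.17 and 3.85 CPM in IMF and at 3.23, 3.55, 3.33 and 2.755 CPM in SF. The groups overlapped, with IMF1, IMF2 and IMF4 above every SF clone and IMF3 below all but SF4. The log2 fold change was 0.25 with a 95% interval from -0.16 to 0.66 (adjusted p = 0.351 by edgeR). The ratio of *EBF1* to *EBF2* in TPM was 3.13 to 4.61 in the IMF clones and 2.04 to 2.96 in the SF clones.

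*ZNF423* (chr18:17963192-18309039), a commitment factor that raises *PPARG* in preadipocytes, was even across the IMF clones and scattered across the SF clones. It stood at 7.82, 9.09, 9.02 and 8.90 CPM in IMF1 to IMF4 and at 15.5, 11.2, 4.75 and 7.33 CPM in SF1 to SF4. SF1 and SF2 lay above and SF3 and SF4 below all IMF clones. The means were 8.71 ± 0.597 and 9.69 ± 4.69 CPM (SD, n = 4 each), with a log2 fold change of -0.15 and a 95% interval from -0.88 to 0.58 (adjusted p = 0.773 by edgeR).

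The relatives of these factors were read next. *EBF3* was higher in IMF by a log2 fold change of 0.25 (adjusted p = 0.0301 by edgeR, but over 0.05 in 7 of 19 alternative settings and up to 0.103 with 1 clone left out), and *ZNF521*, the paralog that opposes *ZNF423* in adipogenesis, had a log2 fold change of 0.23 (adjusted p = 0.648). Among the 7 tested genes of this family list, which includes *EBF1*, *EBF2* and *ZNF423* themselves, 0 were called with the fold change threshold by edgeR (beside 8.82% of all genes), and *EBF1* and *EBF3* were the 2 with an adjusted p under 0.05, a share near the 25.8% of all genes tested. At an unadjusted p under 0.05 there were 4, and with the fold change threshold DESeq2 called 1 (*PRDM16*, a brown adipocyte regulator, with a log2 fold change of -1.13 and an adjusted p of 0.066 by edgeR) and limma-voom 0. In TPM, *ZNF423* was 1.03 ± 0.101 times *ZNF521* in the IMF clones and between 0.4535 and 4.42 times in the SF clones.

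*DLK1* (chr21:65626341-65634498), the transmembrane inhibitor of differentiation, ranged from no count to well above the limit of detection among the clones of 1 depot. Its counts were 66, 0, 4 and 38 in IMF1 to IMF4 and 22, 6, 16 and 12 in SF1 to SF4. IMF2, the deepest library, held none, which at 3 counts allows up to 0.0981 CPM, whereas IMF1 had the highest level of the 8 clones at 3.17 CPM. The IMF mean of 1.29 ± 1.49 CPM and the SF mean of 0.685 ± 0.340 CPM (SD, n = 4 each) could not be separated, with a log2 fold change of 0.89 and a 95% interval from -1.77 to 3.56 (adjusted p = 0.622 by edgeR). The log2 fold change was -0.07 without IMF1, -1.16 under limma-voom and -0.16 with the clone number as a replicate block, so its sign was not stable. All 8 counts of *DLK1* were even numbers, as they were in 16.3% of the 1869 genes with a total of 100 to 250 counts, and the cause was not tested. Of its partners, *DLK2* had a log2 fold change of 0.70 (adjusted p = 0.224 by edgeR) and *ADAM17*, the protease that releases soluble DLK1, one of -0.12 (adjusted p = 0.627). Among 5 partners tested, 0 were called by edgeR, DESeq2 or limma-voom, beside 8.82% of all genes tested by edgeR, and 1 had an unadjusted p under 0.05 by edgeR. With so few genes that share gives about the same count.

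*NOCT* (chr17:18581674-18600421) encodes nocturnin, a rhythmically expressed phosphatase that has been linked to adipogenesis. It lay at 8.73, 7.78, 8.11 and 7.80 CPM in the IMF clones and at 7.24, 5.31, 7.10 and 18.8 CPM in the SF clones. SF1, SF2 and SF3 were below every IMF clone and SF4 was above all of them. The log2 fold change was -0.24 with a 95% interval from -1.08 to 0.59 (adjusted p = 0.674 by edgeR), and it was 0.31 without SF4 (adjusted p = 0.175). SF4 also had the lowest *CEBPB* level of the 8 clones.

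Because nocturnin is tied to the circadian clock, 18 clock gene symbols were read beside it. *PER1*, a clock repressor, rose in IMF with a log2 fold change of 1.69, and *DBP*, a clock output factor, fell with one of -1.15 (adjusted p = 2.91e-05 and 0.00413 by edgeR). By adjusted p alone, 1 gene was higher and 7 were lower in IMF, beside 14.4% and 11.4% of all genes tested, and the list's median was -0.41. *PER2* was among the lower ones with a log2 fold change of -0.88 (adjusted p = 0.00123 by edgeR), as was *CLOCK* with -0.28 (adjusted p = 0.0449, but over 0.05 in 10 of 19 alternative settings), while *NR1D1* had -0.54 (adjusted p = 0.118, and -0.73 with 0.00757 without SF1). The time of day at harvest is not given in the sources used here. The symbols *ARNTL* and *BMAL1* name the same gene and had separate rows, with log2 fold changes of 0.53 and -0.72 and adjusted p-values of 0.124 and 0.408 by edgeR, so the list counts that gene 2 times. Of 5 genes related to *NOCT* by their nuclease or phosphatase fold, 0 were called with the fold change threshold by edgeR, DESeq2 or limma-voom, 2 were higher in IMF by the edgeR adjusted p alone (beside 8.82% of all genes called and 14.4% higher by adjusted p), and 3 had an unadjusted p under 0.05.

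*ATXN1* (chr23:40415680-40835470) encodes ataxin-1, a transcriptional co-repressor that was used by the study as a preadipocyte marker. It stood at 26.0, 25.7, 25.5 and 25.75 CPM in IMF1 to IMF4 and at 53.6, 31.1, 32.8 and 39.7 CPM in SF1 to SF4. All SF clones were above all IMF clones, and SF1 was the highest. The means of 25.7 ± 0.177 and 39.3 ± 10.2 CPM (SD, n = 4 each) corresponded to a 1.53-fold higher level in SF, with a log2 fold change of -0.61 ± 0.16 (SE; adjusted p = 0.0255 by edgeR). The adjusted p rose above 0.05 when any 1 IMF clone or SF4 was left out, to at most 0.0621 by edgeR, while the log2 fold change stayed between -0.72 and -0.42, and it also rose above 0.05 under scaling by total counts alone (log2 fold change -0.46). The gene's span, introns included, overlaps that of *LOC574091*, which has its own row.

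Ataxin-1 binds the repressor CIC, whose known targets include the ETV factors and the DUSP and SPRY inhibitors of growth factor signalling. *ATXN1L*, the paralog of *ATXN1*, was lower in IMF (log2 fold change -0.35, adjusted p = 0.00426 by edgeR; -0.20 and 0.108 under scaling by total counts alone), and *CIC* itself had a log2 fold change of -0.32 (adjusted p = 0.108). *ETV1* fell from 34.3 ± 10.4 CPM in SF to 6.56 ± 0.570 CPM in IMF (SD, n = 4 each; log2 fold change -2.39, adjusted p = 0.000153 by edgeR). *ETV5* and *ETV4* were also called lower, with log2 fold changes of -1.34 and -1.84 (adjusted p = 0.00336 and 0.0187 by edgeR), although the clones overlapped for *ETV4* and its call was lost in 4 of 19 alternative settings, among them limma-voom (adjusted p = 0.0884) and the fit without IMF3 (0.0534 by edgeR). *DUSP4* was called higher in IMF, at 1.73 ± 0.264 against 0.280 ± 0.141 CPM (SD, n = 4 each; log2 fold change 2.63, adjusted p = 0.00293 by edgeR). Thus 4 of the 12 listed partners and targets were called by edgeR, 1 higher and 3 lower in IMF (beside 4.78% and 4.04% of all genes tested), 4 by DESeq2 and 3 by limma-voom, and the list's median log2 fold change was -0.16. By the edgeR adjusted p alone, 2 were higher and 4 lower in IMF (beside 14.4% and 11.4% of all genes tested).

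Regulators upstream and genes downstream of the 10 genes were read from 3 further lists. Among 18 activators of adipogenesis, 3 were called by edgeR, all higher in IMF (beside 4.78% of all genes tested), and 5 each by DESeq2 and limma-voom, and the list's median was 0.01. Those of edgeR were *BMP4*, a commitment signal (19.9 ± 1.90 against 2.05 ± 0.202 CPM, SD, n = 4 each; log2 fold change 3.28), *KLF9*, which acts on the *PPARG* promoter (34.3 ± 2.32 against 7.34 ± 0.794 CPM; 2.23), and *NFIB*, a nuclear factor of the early program (27.1 ± 1.33 against 9.38 ± 4.55 CPM; 1.53). Their adjusted p-values by edgeR were 2.89e-06, 5.04e-06 and 0.00671. By the edgeR adjusted p alone, 3 activators were higher and 1 lower in IMF (beside 14.4% and 11.4% of all genes tested).

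Among 20 inhibitors of adipogenesis, 4 were called lower and 1 higher in IMF by edgeR (25%, beside 8.82% of all genes tested), 5 in all by DESeq2 and 2 by limma-voom, and the median was -0.36. By the edgeR adjusted p alone, 9 were lower and 4 higher in IMF (beside 11.4% and 14.4% of all genes tested). *HES1*, a Notch target, was lower with a log2 fold change of -1.12 (-0.98 and not called under scaling by total counts alone), and *WNT10B*, a Wnt ligand that blocks *PPARG* and *CEBPA*, with -1.67 (adjusted p = 0.000321 and 0.0142 by edgeR). Under limma-voom the calls of *WNT10B* (adjusted p = 0.0546), *GATA2* (0.0563) and *WNT5A* (0.13) were lost. *GATA2*, a repressor of *PPARG*, and *WNT5A* were lower with log2 fold changes of -1.94 and -2.82 (adjusted p = 0.0246 and 0.0202 by edgeR). Both rested in size on SF1, without which they were -1.15 and -1.76, and both calls were lost when any 1 IMF clone was left out (adjusted p of at most 0.0626 and 0.0575). *FOXC2*, a forkhead factor, had 36 to 68 counts in the IMF clones and 6, 0, 0 and 0 in SF1 to SF4, and was called higher in IMF (adjusted p = 0.00907 by edgeR), with a fitted fold change that depends on the prior count.

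Of 17 tested genes of the mature adipocyte, 4 were called by edgeR, all higher in IMF (beside 4.78% of all genes tested), and the median was 0.19. DESeq2 called 3 and limma-voom 4. Those of edgeR were *FABP4*, a fatty acid binding protein and *PPARG* target, *CD36*, a fatty acid transporter, and the lipid synthesis enzymes *SCD* and *FASN*. The counts of *FABP4* were 229, 351, 174 and 172 in IMF1 to IMF4 and 0, 0, 8 and 7 in SF1 to SF4. Its mean level was 9.63 ± 1.86 CPM against 0.178 ± 0.207 CPM (SD, n = 4 each; adjusted p = 0.000787 by edgeR), with no overlap. *CD36* and *SCD* were higher with log2 fold changes of 2.86 and 2.83 (adjusted p = 0.000492 and 2.76e-05 by edgeR), and *FASN* with 1.004 (adjusted p = 0.00102), a call that was lost in 9 of 19 alternative settings. *FABP4* and *CD36* are also expressed by endothelial cells, for which 6 of 7 markers were higher in IMF as given above, and the part of this in both genes was not tested. *PLIN1*, the lipid droplet coat protein of fat cells and another *PPARG* target, had a log2 fold change of -0.35 (adjusted p = 0.119 by edgeR). By the edgeR adjusted p alone, 4 of the 17 genes were higher and 1 lower in IMF (beside 14.4% and 11.4% of all genes tested).

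**Figure D4:**
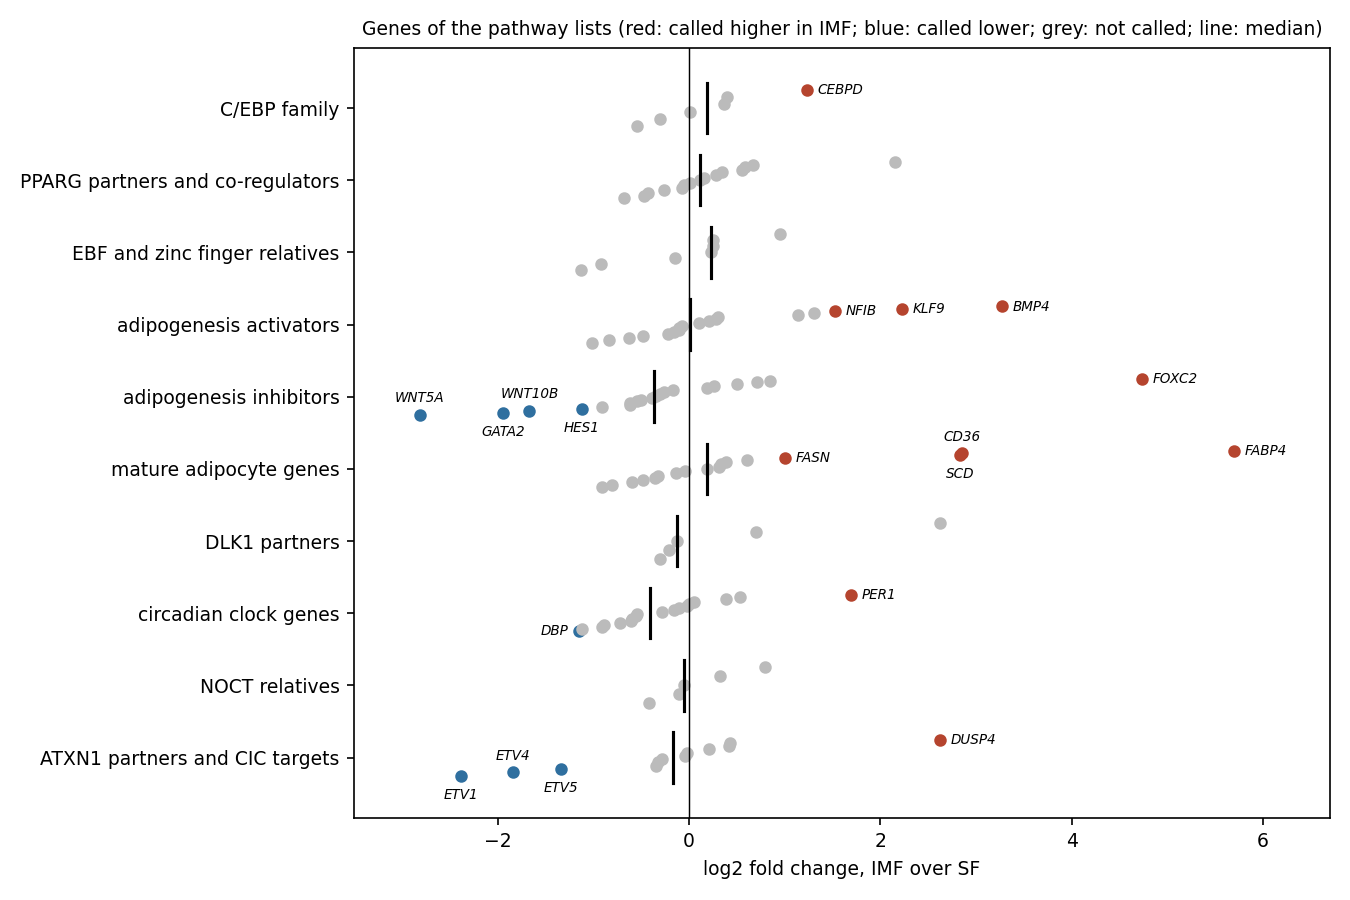
Log2 fold change (IMF over SF) of every tested gene of the 10 lists, 1 row per list and 1 point per gene, with the list's median as a vertical line; called genes are coloured and named. *CEBPD* is the single called gene of the C/EBP family list, the 3 called activators and 4 called mature adipocyte genes lie to the right, and 4 of the 5 called inhibitors lie to the left.

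The 10 genes spanned a wide range of TPM. In the IMF clones *CEBPD* (250 ± 20.8 TPM) was above *CEBPB* (142.5 ± 13.7), followed at a distance by *ATXN1* (10.6 ± 0.754) and *EBF1* (9.85 ± 0.472), whose ranges overlapped. *NOCT* (6.495 ± 0.768) and *CEBPA* (4.79 ± 1.07) were not separated from each other, and *ZNF423* (2.83 ± 0.214), *EBF2* (2.41 ± 0.472), *DLK1* (1.37 ± 1.63) and *PPARG* (1.13 ± 0.285 TPM) formed a low group in which neighbours overlapped. In the SF clones *CEBPB* (108 ± 26.2) and *CEBPD* (106 ± 37.3) were not separated. *ATXN1* (15.9 ± 3.70) followed clear of its neighbours in TPM (in CPM, without the correction for length, its range overlapped that of *CEBPB*), then *NOCT*, *EBF1*, *CEBPA*, *ZNF423*, *PPARG* and *EBF2* with overlapping ranges from 7.29 to 2.02 TPM on average, and *DLK1* (0.700 ± 0.337) lay apart at the bottom. Among all genes tested, mean *CEBPD* TPM ranked at percentile 98.1 in IMF and 95.5 in SF, while *PPARG* ranked at 26.3 and 39.1. The errors in this paragraph are SD over 4 clones.

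The spread between clones was larger in SF than in IMF for 7 of the 10 genes, measured as the SD of log2 CPM with a prior count of 2. This was also the case for 70.6% of the 14351 genes with at least 1 CPM in both groups, with median SDs of 0.12 in IMF and 0.23 in SF. The widest SF spreads among the 10 genes were those of *CEBPA*, *NOCT* and *ZNF423*, with SDs of 0.81, 0.79 and 0.73, at percentiles 92.8, 92.4 and 91.2 of those genes. Their CVs in SF were 52.2, 64.5 and 48.4%, against 11.9, 7.16 and 7.13% from counting alone. *ATXN1* was the most even in IMF, with a CV of 0.686% where counting alone would give 4.11%. *PPARG*, *EBF2* and *DLK1* were the 3 genes with the larger SD in IMF.

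**Figure D5:**
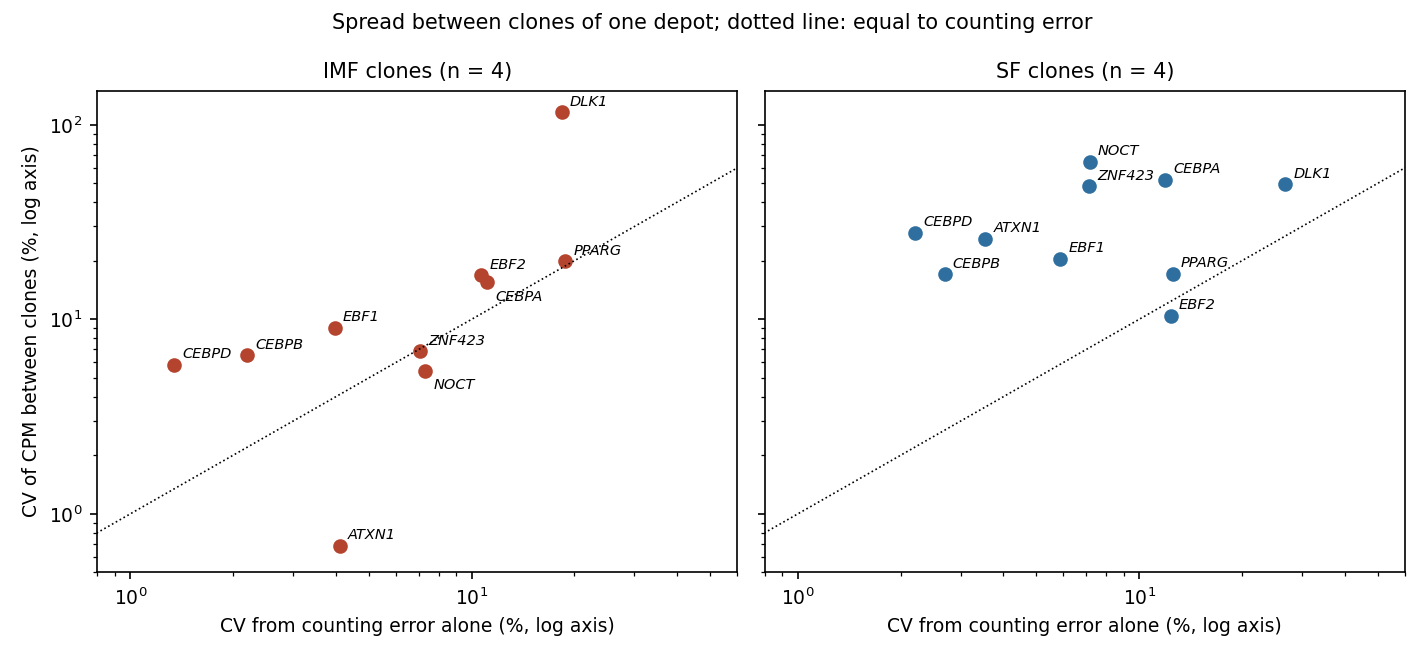
Observed CV of CPM over the 4 clones (vertical log axis, %) against the CV from counting error alone (horizontal log axis, %) for the 10 genes, with IMF on the left and SF on the right; the dotted line marks equality. In SF *NOCT*, *CEBPA* and *ZNF423* lie far above the line at 64.5, 52.2 and 48.4% and *EBF2* lies just below it, and in IMF *DLK1* is highest at 116% and *ATXN1* lowest at 0.686%.

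Genes with the most similar pattern over the 8 clones were sought for *PPARG*, *CEBPA* and *NOCT* as those with the smallest root mean square (RMS) difference in centred log2 CPM among 14350 genes. The nearest to *PPARG* were *LOC112443816*, *LRP1* and *RGS17*, with RMS differences of 0.12, 0.17 and 0.17 against a median of 0.74. *LRP1*, a lipoprotein receptor, averaged 2241 CPM in IMF and 5295 CPM in SF. The nearest to *CEBPA* were *CD40*, *PHLDA1* and *LOC107132410*, with differences of 0.22, 0.25 and 0.25 against a median of 0.59. *NOCT* was followed most closely by *LOC101117181*, *ANO1* and *C15H11orf96*, with differences of 0.20, 0.21 and 0.23 against 0.57. *ANO1*, a calcium-activated chloride channel, stood at 19.2, 15.1, 27.3 and 46.0 CPM in SF1 to SF4, an order that its choice for likeness to *NOCT* fixes in part.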

How the data were processed

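The members and gene lists were chosen with earlier results of these data known. The authors deposited raw counts per gene and clone, made by trimming with Trimmomatic 0.39 and counting with featureCounts 2.0.2 on ARS-UCD2.0, and a gene length in bases. The study's methods name HISAT2 as aligner and the submitters' processing notes STAR 2.7.11a. The methods describe an unstranded kit and the labels a strand-marking protocol, and without strand the reads of 2 genes that overlap cannot be told apart. Multi-mapped reads and annotation release are not given in the sources used here. The deposited group means and DESeq2 results (fold changes and p-values) were not used. A row with no gene name, 0.0148 to 0.0209% of the counts, was dropped.

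Genes with at least 20 counts over the 8 clones were tested with edgeR 4.0.16 (TMM, quasi-likelihood, two-sided, group as the only term, Benjamini-Hochberg over 18339 genes) in R 4.3.3. Alternatives were DESeq2 1.42.0, limma-voom 3.58.1, other size factors, no or a stricter filter, glmTreat at a log2 fold change of 1, a higher prior count (2), robust dispersion, a block for clone number and each clone left out. Intervals are 95% and floors cover counting error only. No 2 libraries agreed within sampling noise. Named were the 10 genes, called genes of each list (at most 5), a set of listed partners and markers, and the 3 genes of closest pattern for *PPARG*, *CEBPA* and *NOCT*. *CEBPZ*, *DDIT3*, *PRDM16*, *ARNTL*, *BMAL1*, *LOC112447469* and *LOC574091* were named after their values were seen. Positions are those of the RefSeq list of ARS-UCD2.0, in which all 10 genes were found. Listed genes without a row, among them *ADIPOQ*, *LPL* and *MEG3*, were not analysed here.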

Additional observations from a re-analysis of the deposited data

Results flagged for a closer look

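In 2 of 26 groups of 4 clones examined, 1 clone lay apart from the other 3 by more than Dixon's 95% critical value, and chance marks about 1 group in 20. *NOCT* in SF clone SF4 stood at 18.8 CPM against 5.31 to 7.24 CPM in the other SF clones, a gap of 0.857 of the group's range. *ZNF423* in IMF clone IMF1 stood at 7.82 CPM against 8.90 to 9.09 CPM in the other IMF clones, a gap of 0.849 of a narrow range. The CV of *ZNF423* over the IMF clones was 6.86%, where counting alone would give 7.06%, so this flag is within counting error.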

How the results depend on the processing

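The calls of *PPARG* and *CEBPD* were lost only in glmTreat, which tests for more than a 2-fold change, where 0 of the 10 genes passed, with or without the fold change threshold (*PPARG* and *CEBPD*, 2 genes, had an unadjusted p under 0.05), and 631 genes in all. The other settings called 1332 to 1996 genes, against 1618. Scaling by total counts alone moved the median log2 fold change to 0.12 and the share of calls higher in IMF from 54.2 to 66.7%; *EBF1* was then called (1.09), and *ATXN1* (-0.46), *CEBPG* (-0.16), *ATXN1L* (-0.20) and *CLOCK* (-0.13) lost their adjusted p under 0.05. With CPM in place of TPM, 14 of 20 places in the order of levels moved. Signs turned without a call for *ZNF423* (0.037) and *DLK1* (-1.16) under limma-voom, for *RXRB* (0.10), *ADAM17* (0.018), *LOC107132410* (0.11) and *ANO1* (0.031) under total counts, and for *CEBPA* and *RXRA* under no filter (-0.021 and -0.019) and the stricter filter (-0.018 and -0.016). The clone numbers were not treated as pairs: deviations of same-numbered clones correlated at 0.0136 to 0.216 and of other pairs at -0.143 to 0.17, not every clone correlated best with its own number, and which clones share a steer is not stated. With the clone number as a replicate block 1489 genes were called, 1356 of them shared with the fit without it, 2 of the 10 genes passed both thresholds and 5 passed by adjusted p, *CEBPB* (0.0449) among them; the calls of *GATA2* (-1.58, adjusted p 0.0656), *WNT5A* (-2.21, 0.0529) and *ETV4* (-1.68, 0.0638) were lost, *EBF3* (0.0711) and *CLOCK* (0.057) no longer passed by adjusted p, *DLK1* had -0.16 and *LOC107132410* 0.0012. With 1 clone left out at a time, log2 fold changes ran from -0.071 to 1.30 for *DLK1*, -0.25 to 0.12 for *LOC107132410*, -0.054 to 0.066 for *RXRA*, -0.17 to 0.22 for *PHLDA1*, -0.22 to 0.26 for *CEBPA*, -0.41 to 0.17 for *ZNF423*, -0.12 to 0.046 for *RXRB*, -0.063 to 0.52 for *C15H11orf96*, -0.44 to 0.31 for *NOCT*, -0.48 to 0.27 for *LOC101117181* and -0.34 to 0.24 for *ANO1*; the shares of *CEBPB* and *CEBPD* differed by -15.6 to -10.7 and 11.4 to 17.0 percentage points, and 3 clones against 4 allow no exact permutation p under 0.0571. The causes were not tested. Counting error was close to the whole spread of *PPARG* in IMF, and for *DLK1* the spread between clones exceeded it.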
